A study of Mus musculus with 4 samples.

Results

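The aryl hydrocarbon receptor pathway was described in RNA of primary mouse T-helper 17 (Th17) cells, CD4 T cells that make interleukin-17. The 8 genes were chosen by symbol: the receptor gene Ahr, its partner Arnt, its repressor Ahrr, and the target genes Tiparp, Cyp1a1, Cyp1a2, Cyp1b1 and Nqo1. All 8 were found among the 50600 genes of the deposited tables, and 7 had a fragment in some library, while 59.1% of all genes and 36.8% of protein-coding genes had none. There was 1 group of 4 RNA-seq libraries, biological replicates 1 to 4, from cells of strain C57BL/6NJ, with no second condition. No AhR ligand is named in the labels. The labels record the age as unknown and the sex as not collected, link a CD4 T-cell differentiation protocol, and give all 4 libraries a single donor identifier. Whether each culture came from its own animal is not stated, so p-values measure only the spread between these samples, which may be partly technical. Levels of sex-linked genes, described with the depths, go against a single animal as the source of all 4 libraries.

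AhR is a transcription factor of the bHLH-PAS family that waits in the cytoplasm with the chaperone HSP90 and co-chaperones such as p23. A ligand, such as a planar pollutant or a breakdown product of tryptophan, sends it to the nucleus, where it pairs with ARNT and binds xenobiotic response elements whose core reads GCGTG. Its best-known targets are the cytochrome P450 genes of the Cyp1 family, whose enzymes oxidise many ligands, and the feedback genes Tiparp and Ahrr, whose products limit the receptor. Among T cells the receptor is known for its high level in Th17 cells and for its part in the production of interleukin-22.

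To show what the letters of the target promoters hold, the 250 bases before each RefSeq start (build GRCm38.p6, credited to RefSeq) were searched on both strands for the core GCGTG, which reads CACGC on the other strand. The same letters can be part of the hypoxia response core and of the longer form TNGCGTG. A promoter was matched by symbol for 7 of the 8 genes, all but Ahr. The core was present in 5 of the 7, against 28.2% of 32851 RefSeq promoter windows of the same length. Ahrr held 3 matches, a number reached by 2.77% of windows, and the match at -27 was also the only TNGCGTG among the 7 (4.10% of windows have at least 1). Cyp1a2 and Nqo1 held none. The promoters below were chosen because they belong to the P450 genes and feedback genes whose levels differ most. They are written 5′ to 3′ in the direction of the gene, ending at the base before the start, with core matches on either strand in capitals.
Cyp1a1, 1 match, chr9:57697363-57697612, plus strand: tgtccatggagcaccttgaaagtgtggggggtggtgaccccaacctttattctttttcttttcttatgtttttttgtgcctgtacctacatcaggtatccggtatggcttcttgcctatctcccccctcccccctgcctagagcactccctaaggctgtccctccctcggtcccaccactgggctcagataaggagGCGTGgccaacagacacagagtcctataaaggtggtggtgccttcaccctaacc
Cyp1a2, no match, chr9:57683656-57683905, minus strand: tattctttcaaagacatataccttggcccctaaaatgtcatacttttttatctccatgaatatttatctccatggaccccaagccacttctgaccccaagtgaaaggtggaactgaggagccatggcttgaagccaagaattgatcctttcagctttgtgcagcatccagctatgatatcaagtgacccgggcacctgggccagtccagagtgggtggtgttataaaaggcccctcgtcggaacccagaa
Cyp1b1, 1 match, chr17:79715062-79715311, minus strand: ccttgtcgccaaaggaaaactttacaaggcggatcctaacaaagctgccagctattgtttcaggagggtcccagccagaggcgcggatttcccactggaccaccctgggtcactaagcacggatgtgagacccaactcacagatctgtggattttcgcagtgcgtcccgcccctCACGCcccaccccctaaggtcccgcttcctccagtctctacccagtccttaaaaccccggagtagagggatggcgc
Tiparp, 1 match, chr3:65528197-65528446, plus strand: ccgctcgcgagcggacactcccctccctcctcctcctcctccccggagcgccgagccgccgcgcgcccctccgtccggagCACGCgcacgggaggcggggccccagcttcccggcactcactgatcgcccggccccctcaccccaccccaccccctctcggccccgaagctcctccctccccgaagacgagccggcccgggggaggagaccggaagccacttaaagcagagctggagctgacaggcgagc
Ahrr, 3 matches, chr13:74292332-74292581, minus strand: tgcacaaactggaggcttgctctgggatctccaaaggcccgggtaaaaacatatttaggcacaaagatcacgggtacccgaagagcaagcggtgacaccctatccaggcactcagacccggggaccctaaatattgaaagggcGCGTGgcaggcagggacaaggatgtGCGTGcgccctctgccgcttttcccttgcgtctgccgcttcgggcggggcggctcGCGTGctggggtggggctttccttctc
The matches lay at -54 in Cyp1a1, -76 in Cyp1b1, -170 in Tiparp and -107, -82 and -27 in Ahrr, counted from the start to the first base of the match as printed. The TATA box letters TATAAA, searched on both strands, were found at -30 in Cyp1a1 and at -29 in Cyp1a2 and Nqo1, against 12.4% of windows, and in none of the other 4. The antioxidant element TGACNNNGC, also searched on both strands and found in 10.2% of windows, was matched 2 times in Arnt and in no other member, including Nqo1. A match describes letters in this window only, and nothing was drawn from the lack of one.

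The libraries held 24696730 to 37025016 fragments. Levels are in TPM, transcript copies scaled to a fixed total per library, computed from the counts and the summed exon lengths. Ratios between genes, those below included, depend on that length. With the longest coding transcript as the length, Ahr was at 143, Arnt at 31.2, Tiparp at 53.4 and Ahrr at 0.558 TPM. Detection was limited to 3 fragments (the floor), and floors and counting intervals cover counting error only. Replicates 1 and 2 stood apart from 3 and 4 in sex-linked genes: Xist was at 186, 161, 0.687 and 0.721 TPM, and the Y-linked Ddx3y at 0.442, 0.446, 88.6 and 83.2 TPM. The 2 pairs therefore did not share an animal, despite the single donor identifier, and whether the libraries within a pair did is not known. Member levels are also given within each of these pairs where they differed. Checked against the label of the cells, all 10 T-cell and Th17 markers, among them Il17a, Il17f and Cd4, were above 1 TPM in every library.

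Ahr was by far the most abundant of the 8 genes. It was at 189.5, 178, 176 and 170 TPM in replicates 1 to 4, a mean of 179 ± 8.0 (SD, n = 4, as for all values with ± below). All 4 libraries were close together, with replicate 1 the highest, and the level ranked 1047 of 21764 protein-coding genes. Its partner Arnt, which also dimerises with hypoxia-inducible factors, was at 23.5, 23.2, 23.8 and 23.03 TPM (mean 23.4 ± 0.323). The libraries of Arnt spread no more than counting alone gives, with an index of dispersion of 0.246, where 1 is pure counting. Ahr exceeded Arnt by 8.08, 7.69, 7.41 and 7.4 times in replicates 1 to 4, so transcripts of the receptor outnumbered those of its partner in each library.

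On build mm10, with positions from the deposited tables, Ahr (ENSMUSG00000019256.17) spans 35497974 to 35535038 on the minus strand of chromosome 12. Arnt (ENSMUSG00000015522.18) spans 95434388 to 95497240 on the plus strand of chromosome 3. Values count fragments over all exons, UTRs included, and no exon of a member overlaps an exon of another gene on the same strand.

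**Figure D1:**
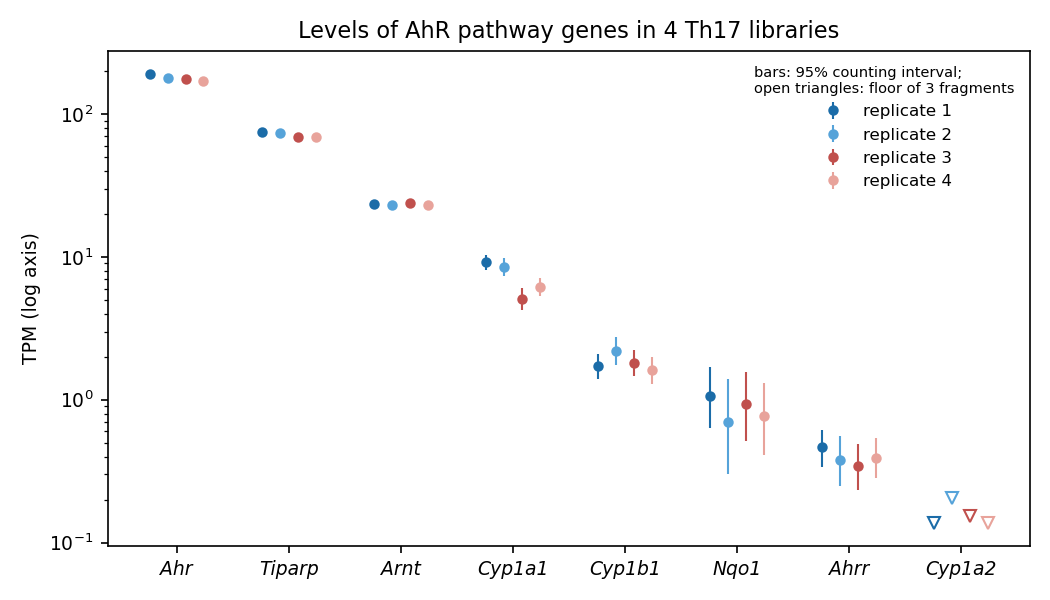
Levels of the 8 genes in each of the 4 libraries, in TPM on a log axis, in order of mean level; bars are 95% Poisson intervals of the counts and open triangles mark the floor of 3 fragments for Cyp1a2, which had none. Levels span from 179 TPM for Ahr to 0.395 TPM for Ahrr, and the libraries of neighbouring genes do not overlap.

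The feedback genes lay far apart. Tiparp, which encodes an ADP-ribosyltransferase that modifies AhR and promotes its loss, was at 74.6, 73.4, 68.8 and 68.5 TPM (71.3 ± 3.15). Replicates 1 and 2 were slightly above 3 and 4. Ahrr, which encodes a repressor that competes with AhR for ARNT, was at 0.463, 0.381, 0.344 and 0.393 TPM (0.395 ± 0.0499), from 47, 26, 31 and 40 fragments. Each library was above the floor, which was 0.0439 TPM in the shallowest, and their counting intervals overlapped. Tiparp exceeded Ahrr by 161, 193, 199.99 and 174 times in replicates 1 to 4, and Ahr exceeded Ahrr by 409 to 513 times. Tiparp (ENSMUSG00000034640.9) lies at 65528410 to 65555518 on the plus strand of chromosome 3, and 223 of its exon bases, or 5.12%, face exons of 4931440P22Rik on the other strand, which counting by strand kept apart. Ahrr (ENSMUSG00000021575.15) lies at 74211118 to 74292331 on the minus strand of chromosome 13. By summed exon length Ahrr was the lowest member with any fragment, but under the longest coding transcript length it was not separated from Nqo1. Its promoter held the most core matches of those searched, and no link between matches and levels was tested.

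The 3 Cyp1 genes differed from one another by more than any differed between libraries. Cyp1a1, a monooxygenase that clears planar AhR ligands and the classical readout of receptor activity, was at 9.16, 8.52, 5.08 and 6.15 TPM (7.23 ± 1.93), from 278, 174, 137 and 187 fragments. Replicates 1 and 2 were above 3 and 4 without overlap. Cyp1b1, a related enzyme of steroid and hydrocarbon oxidation, was at 1.72, 2.21, 1.81 and 1.61 TPM (1.84 ± 0.261). Here replicate 2 was the highest and the libraries of the 2 pairs overlapped. Cyp1a2, the form best known from liver, had not a single fragment, where the floor of 3 fragments is 0.203 TPM and the upper 95% Poisson limit 0.25 TPM in replicate 2, the shallowest library.

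Cyp1a1 and Cyp1a2 are neighbours in opposite orientation on chromosome 9 (build mm10). Cyp1a1 (ENSMUSG00000032315.6) spans 57687928 to 57703824 on the plus strand and Cyp1a2 (ENSMUSG00000032310.4) spans 57676937 to 57683703 on the minus strand. Cyp1a1 was at least 33.0-fold higher than the floor of Cyp1a2 in every library. The genes are paralogues, but only 94 of the 50-base words of Cyp1a2, or 4.79% of them, also occur in Cyp1a1, and no exon base of Cyp1a2 overlaps another gene. Cyp1a1 exceeded Cyp1b1 by 5.33, 3.86, 2.80 and 3.82 times in replicates 1 to 4.

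Nqo1, a quinone reductase controlled by AhR and by the oxidative stress factor NRF2, was close to the limit of detection. It was at 1.06, 0.703, 0.932 and 0.767 TPM (0.867 ± 0.163), from 18, 8, 14 and 13 fragments. The gene (ENSMUSG00000003849.8) lies at 107388225 to 107403206 on the minus strand of chromosome 8, and Cyp1b1 (ENSMUSG00000024087.3) at 79706953 to 79715041 on the minus strand of chromosome 17. For Nqo1 the spread was no larger than counting alone gives (index of dispersion 0.430), so no order among its libraries can be read.

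Of the 8 genes, 5 reached 1 TPM in every library (Ahr, Tiparp, Arnt, Cyp1a1 and Cyp1b1), whereas 44.8% of protein-coding genes and 22.1% of all genes did. The order by mean TPM was Ahr, Tiparp, Arnt, Cyp1a1, Cyp1b1, Nqo1, Ahrr and Cyp1a2, and each of the 7 neighbouring steps had the same direction in 4 of 4 libraries. On the log2(TPM + 0.1) scale, which understates differences of low genes, the steps were 1.32 ± 0.03 from Ahr to Tiparp, 1.60 ± 0.07 to Arnt and 1.72 ± 0.40 to Cyp1a1. Those among the low genes were 1.89 ± 0.37 from Cyp1a1 to Cyp1b1, 1.01 ± 0.37 to Nqo1 and 0.96 ± 0.22 to Ahrr. The step from Ahrr to Cyp1a2 was 2.30 ± 0.14, with Cyp1a2 at no fragment. For all 28 pairs the exact two-sided sign-flip p was 0.13, and 0.13 after Benjamini-Hochberg adjustment, which is the smallest that 4 libraries allow, so no step can pass 0.05. With the longest coding transcript as the length, Nqo1 was above Ahrr in 2 of 4 libraries and their levels were 0.625 ± 0.118 and 0.558 ± 0.0703 TPM, so that these neighbours were not separated. The other 6 steps kept their direction in 4 of 4 libraries under that length.

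**Figure D2:**
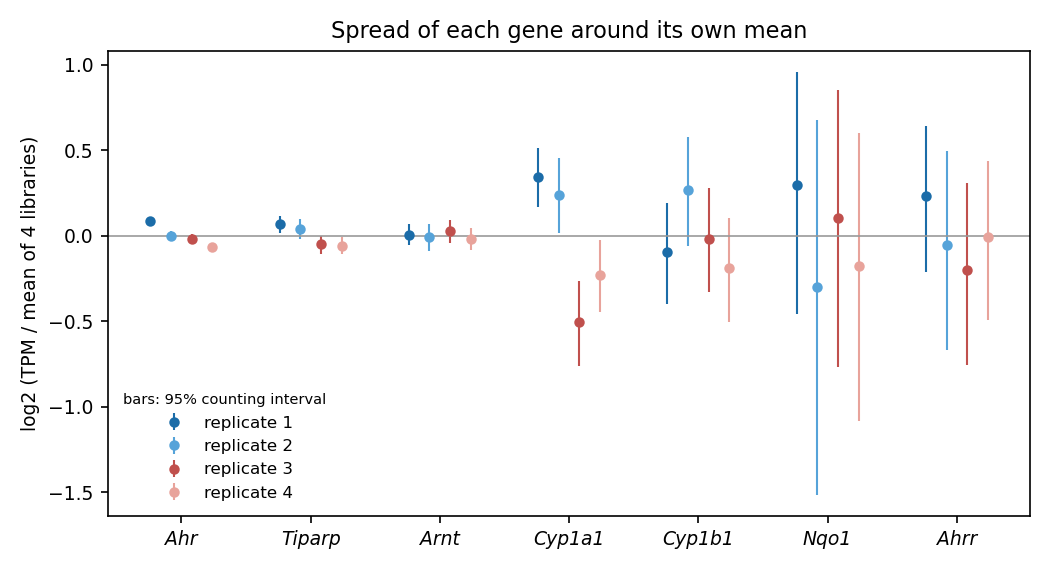
Each library's level as log2 of its ratio to the mean of the 4 libraries, for the 7 genes with fragments; bars are 95% Poisson intervals of the counts. The libraries of Cyp1a1 lie farthest apart among genes whose intervals separate, at 9.16 and 8.52 TPM in replicates 1 and 2 against 5.08 and 6.15 TPM in 3 and 4, while the intervals of Nqo1 and Ahrr overlap.

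Cyp1a1 varied most between the replicates. In an edgeR quasi-likelihood fit to all genes, its dispersion was 6.55 times that of genes of its abundance (one-sided, adjusted p = 0.269), rank 90 of the 11847 genes tested. Ahr and Tiparp had ratios of 1.78 and 1.75 (adjusted p = 0.993 for each), Cyp1b1 0.830, Ahrr 0.331 and Nqo1 0.326. Arnt, at 0.05, was among the steadiest genes, with a lower ratio in 1.49% of the genes tested. Of the 7 members tested, 0 were called variable after adjustment and 1, Cyp1a1, had an unadjusted p under 0.05. Over all genes 0.304% were called and 5.69% had such an unadjusted p. When genes with as little as 1 fragment in some library entered the fit, the adjusted p of Cyp1a1 was 0.0420, so the call depends on the filter. Over the 9 alternatives to this fit it ranged from 0.0420 to 0.657.

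**Figure D3:**
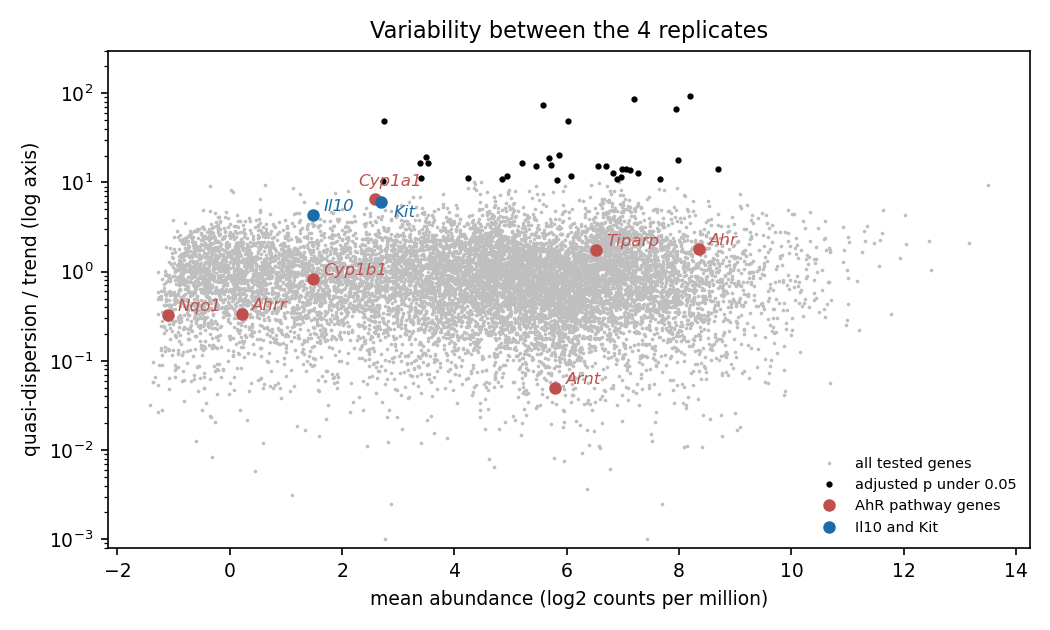
Quasi-dispersion of each of the 11847 tested genes over the trend at its abundance (log axis), against mean abundance in log2 CPM; black points are the 36 genes with adjusted p under 0.05. Cyp1a1, at 6.55 times the trend, lies near Kit (6.02) and Il10 (4.33) toward the upper edge of the unmarked genes, and Arnt lies toward the lower edge.

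The variation of Cyp1a1 followed the 2 pairs of libraries that differ in sex-linked genes. Its mean was 8.84 TPM in replicates 1 and 2 and 5.62 TPM in replicates 3 and 4, a ratio of 1.57. Ahr (184 against 173 TPM) and Tiparp (73.98 against 68.6 TPM) lay the same way without overlap, by ratios of 1.06 and 1.08, whereas Arnt (23.3 against 23.4 TPM), Cyp1b1 and Ahrr overlapped. Thus 3 of the 6 members with at least 10 fragments in every library were higher in replicates 1 and 2, against 18.2% of all such genes, and 0 were lower, against 16.8%. These are counts over 6 genes of 1 pathway, without a test. Only in Cyp1a1 did the counting intervals of the pairs stay apart. In Ahr and Tiparp the intervals of replicates 2 and 3 overlapped. The labels do not name the pairs, and their part in the level of Cyp1a1 was not tested. Without chromosomes X and Y in the fit, the adjusted p of Cyp1a1 was 0.175.

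Markers of other cell types, some of which express Cyp1 enzymes, were mostly at or near 0. The highest were Cd8b1 at 7.32 ± 1.16 TPM and Cd68 at 5.24 ± 1.02 TPM, beside 7.23 TPM for Cyp1a1. Cd8a, of the same list as Cd8b1, was at 0.102 ± 0.0523 TPM, from 14 fragments in all. Whether other cells contributed to Cyp1a1 was not tested. Of 5 hepatocyte markers 4, including Alb, Ttr and Cyp2e1, had no fragment, and their summed level was 0 to 0.0382 TPM. Of 8 endothelial and fibroblast markers 1, Pecam1, which T cells can also express, reached 1 TPM. Kdr, Tek and Pdgfra had no fragment, and the sum lay between 3.08 and 3.46 TPM. Of 5 epithelial markers none reached 1 TPM in every library, with Krt8 and Krt5 at 0 and a sum of 1.16 to 2.51 TPM, nearly all of it Epcam. Epcam was at 1.26, 0.870, 2.48 and 1.48 TPM in replicates 1 to 4, from 28, 13, 49 and 33 fragments. Replicate 3 was the highest, while replicates 1 and 4 lay close together. The sums were 4.18 to 6.59 TPM for 10 myeloid and dendritic markers (mostly Cd68, with Lyz2, C1qa and Siglech at 0), 6.09 to 9.10 TPM for 7 CD8, NK and innate lymphoid markers (mostly Cd8b1, with Ncr1 and Klrb1c at 0) and 0.315 to 1.49 TPM for 5 B-cell markers (Ms4a1 and Pax5 at 0). In such bulk libraries, few cells with much Cyp1a1 and many cells with little cannot be told apart.

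Within their enzyme families, Tiparp and Cyp1a1 were among the highest genes. Tiparp was at rank 3 of 13 PARP genes, after Parp1 (240.5 ± 3.59 TPM) and Parp2 (114 ± 2.53 TPM), which act in DNA repair, and well above Parp3 (15.2 ± 0.590 TPM). Of 121 genes with a P450 symbol, pseudogenes included, 8 reached 1 TPM in every library and 100 had no fragment. Cyp51, the sterol demethylase, led at 139 ± 3.33 TPM, followed by the orphan P450 Cyp20a1 at 50.5 ± 1.98 TPM. Cyp1a1 was at rank 3 and Cyp1b1 at rank 7, and Cyp1a1 could not be separated from Cyp4f13 at 7.07 ± 0.322 TPM, with which it changed places under the length of the longest coding transcript.

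**Figure D4:**
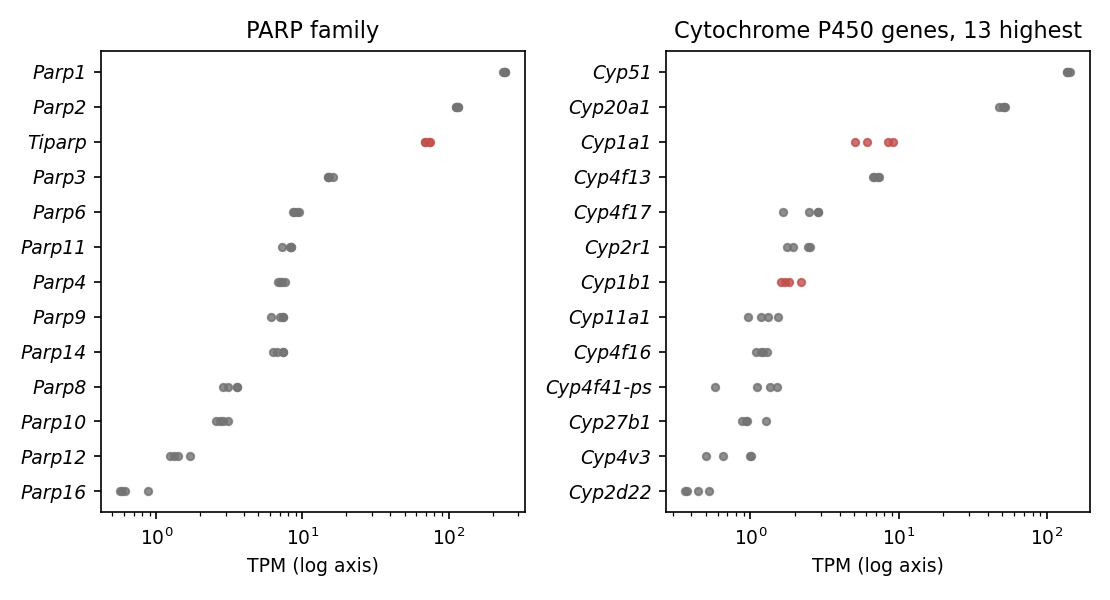
Levels of the 13 PARP genes and of the 13 highest cytochrome P450 genes in each of the 4 libraries, in TPM on a log axis, with AhR targets in red. Tiparp, at 68.5 to 74.6 TPM, is at rank 3 of the PARP genes, and the 4 libraries of Cyp1a1 spread from 5.08 to 9.16 TPM, on either side of Cyp4f13.

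Genes of the AhR chaperones and of the CUL4 ubiquitin ligase tied to AhR were abundant at the RNA level. All 8 genes of the chaperone and turnover list were above 10 TPM in every library, where 44.8% of protein-coding genes reached 1 TPM. The list median was 260.1 TPM, against a median of 0.275 TPM over all protein-coding genes. The HSP90 genes Hsp90ab1 and Hsp90aa1 were at 10263 ± 204 and 1289 ± 23.7 TPM. Ddb1, a subunit of the CUL4 ubiquitin ligase through which AhR has been described to act on other receptors, was at 575 ± 14.3 TPM. The p23 gene Ptges3 was at 385 ± 5.49 TPM, while Cul4b was the lowest at 92.2 ± 1.43 TPM. The 8 coactivator genes were all above 10 TPM too, from the chromatin remodeller Smarca4 at 177 ± 4.63 TPM, Ncoa3 at 111 ± 0.777 TPM and the Mediator subunit Med1 at 66.5 ± 2.32 TPM down to Nrip1 at 11.7 ± 0.764 TPM.

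Among the other 13 bHLH-PAS genes, 5 reached 1 TPM in every library and 5 had no fragment, close to the 44.8% and 36.8% of all protein-coding genes. Hif1a, which also pairs with ARNT, was at 558, 581, 583 and 535 TPM, above Ahr in each library. With Ahr it outnumbered Arnt, whose close relative Arnt2 had no fragment in any library (floor 0.0532 TPM). The clock factors Arntl and Clock were at 19.04 ± 0.636 and 15.3 ± 0.0756 TPM, Npas4 at 6.08 ± 0.193 TPM and Npas2 at 4.76 ± 0.479 TPM. Hif3a (0.434 ± 0.0998 TPM), Arntl2 (0.282 ± 0.0390 TPM) and Epas1 (0.148 ± 0.0436 TPM) were under 1 TPM, and Sim1, Sim2, Npas1 and Npas3 had no fragment.

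Tryptophan enzymes and transporters ranged from no fragment to 427 TPM. Of 16 genes, 6 reached 1 TPM in every library and 4 had no fragment, against 44.8% and 36.8% of protein-coding genes. The enzyme genes Ido1, Tdo2, Tph1 and Aadat were those without a fragment, and Ido2, Kynu, Ddc and Kmo had 1, 2, 1 and 11 fragments in all 4 libraries together. The monoamine oxidase gene Maoa was at 10.2 ± 0.314 TPM and the kynurenine formamidase gene Afmid at 1.36 ± 0.179 TPM. Il4i1, a secreted amino acid oxidase that yields AhR ligands, was at 1.04 ± 0.199 TPM. The large neutral amino acid transporter genes Slc7a5 and Slc3a2, whose product carries tryptophan and kynurenine, were at 427 ± 10.2 and 241 ± 5.47 TPM, and the aromatic amino acid transporter Slc16a10 was at 60.5 ± 2.82 TPM. Slc36a4 was at 12.9 ± 0.672 TPM, while another transporter gene of the list, Slc7a8, was at 0.164 ± 0.121 TPM, from 27 fragments.

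Of 9 further xenobiotic targets of AhR outside the Cyp1 family, 3 reached 1 TPM in every library and 5 had no fragment, where 44.8% and 36.8% of protein-coding genes did so. Aldh3a1, Ugt1a6a, Ugt1a6b, Gsta1 and Gsta2 were those without a fragment, although Gsta1 with Gsta2 and Ugt1a6a with Ugt1a6b are near-identical copies whose fragments could have been lost in counting. Gstp1, a glutathione transferase, was at 192 ± 4.30 TPM and has close copies too. The NRF2 gene Nfe2l2 was at 37.01 ± 0.535 TPM and Socs2 at 1.36 ± 0.225 TPM. Cyp2s1 was at 0.231 ± 0.0728 TPM.

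The NRF2 pathway, which shares Nqo1 as a target, was expressed apart from 3 genes. Of 16 genes, 13 reached 1 TPM in every library, against 44.8% of protein-coding genes, and 12 reached 10 TPM. The list median was 75.6 TPM, against 0.275 TPM over all protein-coding genes. Prdx1, a peroxide reductase, was at 439 ± 7.53 TPM, the pentose phosphate enzyme Tkt at 284 ± 3.49 TPM and the thioredoxin reductase Txnrd1 at 195 ± 4.38 TPM. The exceptions were Slc7a11 and Me1, with 7 and 2 fragments in all, and Srxn1 at 1.11 ± 0.407 TPM. Nqo1, at 0.867 TPM, lay near Srxn1 and below the other 13. All 13 genes of P450 electron transfer and haem synthesis were above 1 TPM in every library, again against 44.8% of protein-coding genes. The cytochrome b5 gene Cyb5b led at 174 ± 3.5 TPM, before the haem synthesis gene Cpox at 93.2 ± 3.38 TPM. The P450 reductase Por was at 57.96 ± 2.37 TPM, and the epoxide hydrolase Ephx1 was the lowest at 10.4 ± 1.15 TPM.

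**Figure D5:**
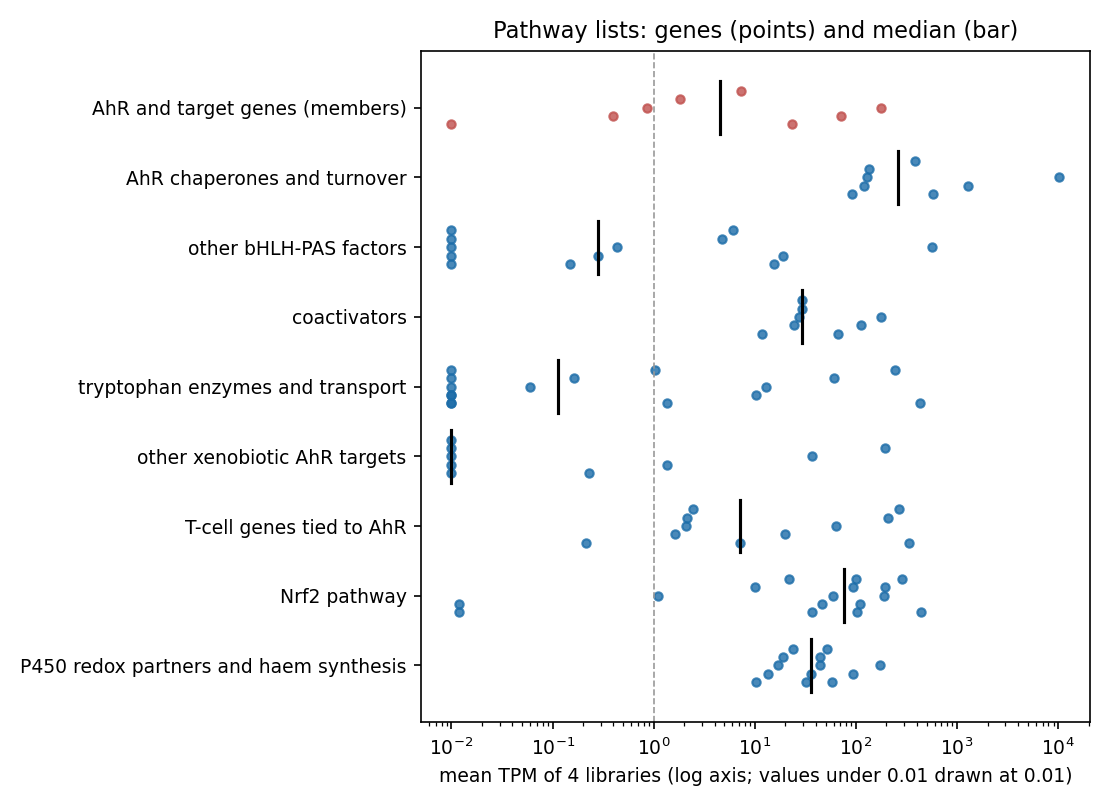
Mean TPM over 4 libraries (log axis, values under 0.01 drawn at 0.01) of each gene in the AhR set and in the 8 pathway lists, with the list median as a bar and 1 TPM as a dashed line. Chaperones and coactivators lie above 10 TPM throughout, while tryptophan enzymes, xenobiotic targets and bHLH-PAS factors include genes at 0.

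Of 11 T-cell genes tied to AhR in the literature on helper cells, 10 reached 1 TPM in every library, against 44.8% of protein-coding genes. Il22, a cytokine known to depend on the receptor, was at 1.57, 1.84, 2.61 and 2.31 TPM, from 90 fragments in all, so a high level of Ahr stood beside a low level of Il22. Il22 had 19, 15, 28 and 28 fragments in replicates 1 to 4, and its dispersion was 0.815 times the trend in the edgeR fit. No order among its libraries was therefore read. Il10, an anti-inflammatory cytokine, was at 8.34, 9.79, 4.89 and 5.67 TPM, and Kit, a growth factor receptor, at 3.31, 2.47, 2.02 and 1.94 TPM. In both, replicates 1 and 2 were above 3 and 4, as in Cyp1a1. The same split was seen in 18.2% of all genes with at least 10 fragments in every library. Il10 and Kit had dispersions of 4.33 and 6.02 times the trend (edgeR, adjusted p = 0.6098 and 0.333). With Cyp1a1 they were the 3 of 76 tested pathway genes, members included, with an unadjusted p under 0.05, where 5.69% of all genes have one, and 0 of the 76 passed after adjustment.

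The transcription factor Maf, which works with AhR at Il10, was at 215, 212, 201 and 196 TPM, and Ikzf3, which encodes Aiolos, at 65.5, 66.2, 62.1 and 59.96 TPM. Replicates 1 and 2 were the higher in both by a small margin, a split that 18.2% of genes with at least 10 fragments per library share. The cytokine genes Il21 and Il17a were at 331 ± 4.47 and 20.02 ± 1.02 TPM, and the interleukin-23 receptor gene Il23r was at 2.14 ± 0.154 TPM. The ectonucleotidase gene Entpd1 was at 1.62 ± 0.452 TPM, with replicate 2 at 2.30 and the others at 1.38 to 1.42 TPM. Gpr15, a homing receptor and a direct target in T cells, had 5, 2, 0 and 4 fragments in replicates 1 to 4, so it passed the floor of 3 fragments in replicates 1 and 4 only, at 0.356 and 0.284 TPM.

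By level alone, the genes of the pathway lists closest to each member over the 4 libraries were found among 93 candidates, as the mean absolute difference in log2(TPM + 0.1). Nearest to Ahr were Cyb5b (0.063) and Smarca4 (0.075), nearest to Arnt were Alas1 (0.047) and Ncoa2 (0.061), and nearest to Tiparp were Med1 (0.0996) and Ikzf3 (0.17). Il10 was nearest to Cyp1a1 (0.13), followed by Npas4 (0.32), and Entpd1 (0.22) and Il23r (0.26) were nearest to Cyp1b1. Likeness here is of level in 4 libraries and carries no test.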

How the data were processed

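The authors deposited 1 table of raw fragment counts per library, counted over the exons of GENCODE vM13 by featureCounts 1.4.6-p4, per the file headers, which required both mates to be aligned and set strand option 2 (reverse). The labels name build mm10. The aligner's release was not given in the sources used here. Per the labels the assay is total RNA-seq, but the linked library protocol is named for polyA-selected RNA, and the headers carry a tag of hours that the labels do not explain. Options for fragments with several alignments do not appear in the headers, so genes with near-identical copies may be undercounted. Each deposited table also gives a length per gene (other), which for the members equals their merged exons.

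TPM was computed as count over that length, scaled to 1000000 per library. Symbols came from GENCODE M21, with identifier versions ignored. Totals of 24696730 to 37025016 fragments set the floors. For variability, 11847 genes kept by filterByExpr entered an intercept-only edgeR fit with TMM scaling and a robust prior (edgeR 4.0.16, R 4.3.3): residual quasi-dispersion over the trend, F distribution, upper tail, with Benjamini-Hochberg adjustment over all tested genes. The test was also run on simulated counts, with variation added only in genes of higher counts than Cyp1a1. That run does not cover genes as low as Cyp1a1, and nothing was drawn from it here. Alternatives were other lengths, scalings (DESeq2 1.42.0 size factors), pseudocounts, thresholds, filters and priors, and each replicate left out. The members and lists were chosen with earlier results of these data known.

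All 8 members are named. By rule, the 3 highest and the lowest gene of each list, any bHLH-PAS or listed T-cell gene, the 3 highest of each family and the 2 list genes nearest in level to a member may be named. Other list genes, markers and family members named were chosen after their values were seen. Values of 2 listed genes are not reported here. Parpbp, a binding protein, was not taken as a PARP gene. Shared sequence was counted as 50-base words of a gene's transcripts found in transcripts of other genes on either strand. Python 3.11.15 was used with pandas 2.3.3, scipy 1.17.1 and matplotlib 3.10.9.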

Additional observations from a re-analysis of the deposited data

Results flagged for a closer look

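Of 75 pathway genes with at least 10 fragments in every library, members included, 6 had 1 library far from the other 3, and chance puts about 1 in 20 genes past this limit. No member was among them. Replicate 2 was high in Entpd1 (2.30 TPM, next 1.42) and in Slc7a5 (442 TPM, next 422). It was low in Ep300 (28.1 TPM, next 29.9), Med1 (63.1 TPM, next 67.4) and Npas2 (4.04 TPM, next 4.93). Replicate 4 was low in Slc16a10 (56.3 TPM, next 61.3). Replicate 2 was the shallowest library, and whether depth played a part was not tested.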

How the results depend on the processing

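Of the 7 neighbouring steps in level, 7 kept their direction in every library under each alternative but the coding transcript length, which left 6 (Nqo1 and Ahrr were not separated). The members detected were 4 to 6 across thresholds, against 5. With the longest coding transcript as the length, levels moved to 143 TPM for Ahr, 31.2 for Arnt, 0.558 for Ahrr, 53.4 for Tiparp, 1.32 for Cyp1b1 and 0.625 for Nqo1, and Cyp1a1 took rank 4 among the P450 genes. Without mitochondrial and ribosomal RNA genes, Arnt was at 23.95 TPM. Without a filter beyond 1 fragment in some library, 94 genes and 1 member, Cyp1a1, were called variable, against 36 and 0. The prior without robust estimation called 17 genes and 0 members. With each replicate left out in turn, 15 to 37 genes were called, with the lowest number without replicate 4, and 0 members. At 5 TPM, 5 of the 11 T-cell genes counted as detected. The cause of these shifts was not tested, except that the transcript length changes TPM by construction. No paired analysis was possible because there was 1 group. Depth limits Nqo1 (53 fragments), Ahrr (144) and Cyp1a2 (none), whose spread cannot be told from counting error.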
